A study of Ovis aries with 8 samples.

Results

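The genes described here are 40 genes of the contractile apparatus, calcium handling and fuel supply of skeletal muscle, read in a fat depot. They were selected by gene symbol from a list, and 1 of them, MYL2, was already known from earlier work on these data to be raised in 1 lamb, so that the order of the arrays is given below as a description and not as a test. By the array's annotation 29 of the 40 genes had a probe set, with 50 probe sets between them, out of 9155 genes named by a probe set of 1 symbol and 24016 probe sets tested. Each gene was represented by its probe set with the highest mean over the 8 arrays, here called its brightest. The symbols MYH2, MYLPF, TNNI1, TTN, CASQ1, CASQ2, RYR1, MYBPC2, TRIM63, PVALB and CSRP3 had no probe set in the annotation used and were not analysed here.

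The tissue was perirenal adipose, or kidney fat, of male Dorset/Suffolk/Rambouillet cross-bred lambs at 12 weeks of age. The 4 NmatCpat lambs had inherited the Callipyge allele from the sire, the genotype that shows the muscling phenotype, and the 4 NmatNpat lambs carried the wild type allele from both parents. RNA of each lamb was hybridised to 1 Affymetrix Bovine Genome array, so that cattle probes read sheep transcripts. Lambs are numbered as in the labels, and animal 1 of one genotype has no stated relation to animal 1 of the other.

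Skeletal muscle fibres contract when myosin heads, each carrying light chains, pull on thin filaments of actin, tropomyosin and troponin. Calcium released from the sarcoplasmic reticulum binds troponin C and opens the thin filament, and a calcium pump then returns it to the store. Fast twitch and slow twitch fibres use different genes for most of these proteins, so the makeup of a set of muscle transcripts can be read by fibre type, and several slow fibre genes are also used by the heart. White fat cells do not build sarcomeres, while the vessels in a fat depot hold smooth muscle, which has its own myosin and actin and shares desmin and some tropomyosin with skeletal muscle.

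All values below are log2 intensities after quantile normalization. Genes are called dim or bright by their signal alone, and amounts of transcript are not compared between genes. Most of these genes were dim: 21 of the 29 measured genes had a mean at or below 5.99, the median over all probe sets, and 8 lay above it. The typical SD between lambs of 1 genotype was 0.872 among the 12008 probe sets at or below that median and 0.287 among those above it, and its median over the muscle genes was 0.811. The tissue's own markers were bright, with a mean over 13 adipocyte genes between 9.50 and 9.82 in all 8 lambs. The array of NmatNpat animal 1 stood apart by its neuronal transcripts, with 10 of 12 neuron genes exceeding the other 7 arrays, averaged, by over 2 log2 units, but 0 of the 29 muscle genes were over 1 log2 unit there.

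Many of the 29 measured muscle genes, most of them dim, were raised on the array of NmatCpat animal 4. By its count a wider skeletal muscle list, given below, did not single out this array. On this array 16 of the 29 measured genes exceeded the average of the remaining 7 by more than 1 log2 unit, against 7.88% of all probe sets and 14.7% of the 12008 dimmer ones. In this lamb 8 of 29 genes exceeded the other arrays by over 2 log2 units, against 1.18% of all probe sets. In 18 of 29 it had the highest value of all 8 lambs, against 13.0%. These shares, and those given below for the other arrays, were not counted for the dimmer probe sets alone. The median difference from the other arrays was 1.16 log2 units over the 29 genes. By level, 13 of the 21 genes at or below the median level were over 1 log2 unit. Of the 8 genes above it 3 were, with a median difference of 0.08. In bulk tissue, more cells of a type and more RNA per cell cannot be told apart.

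No other array came near this count. In the NmatCpat group animal 1 had 4 of 29 genes over 1 log2 unit, against 7.56% of all probe sets, animal 2 had 5, against 8.47%, and animal 3 had 3, against 7.46%. In the NmatNpat group animals 1 and 3 had 0 of 29, against 9.21% and 7.0%, animal 2 had 2, against 8.0%, and animal 4 had 3, against 7.74%. The median difference on these 7 arrays lay between -0.35 and 0.17 log2 units. The members close to the limit on the array of NmatCpat animal 4 were TCAP at 1.01 and SLN at 1.16 just inside it, and MB at 0.95 and MYBPC1 at 0.89 just outside.

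**Figure D1:**
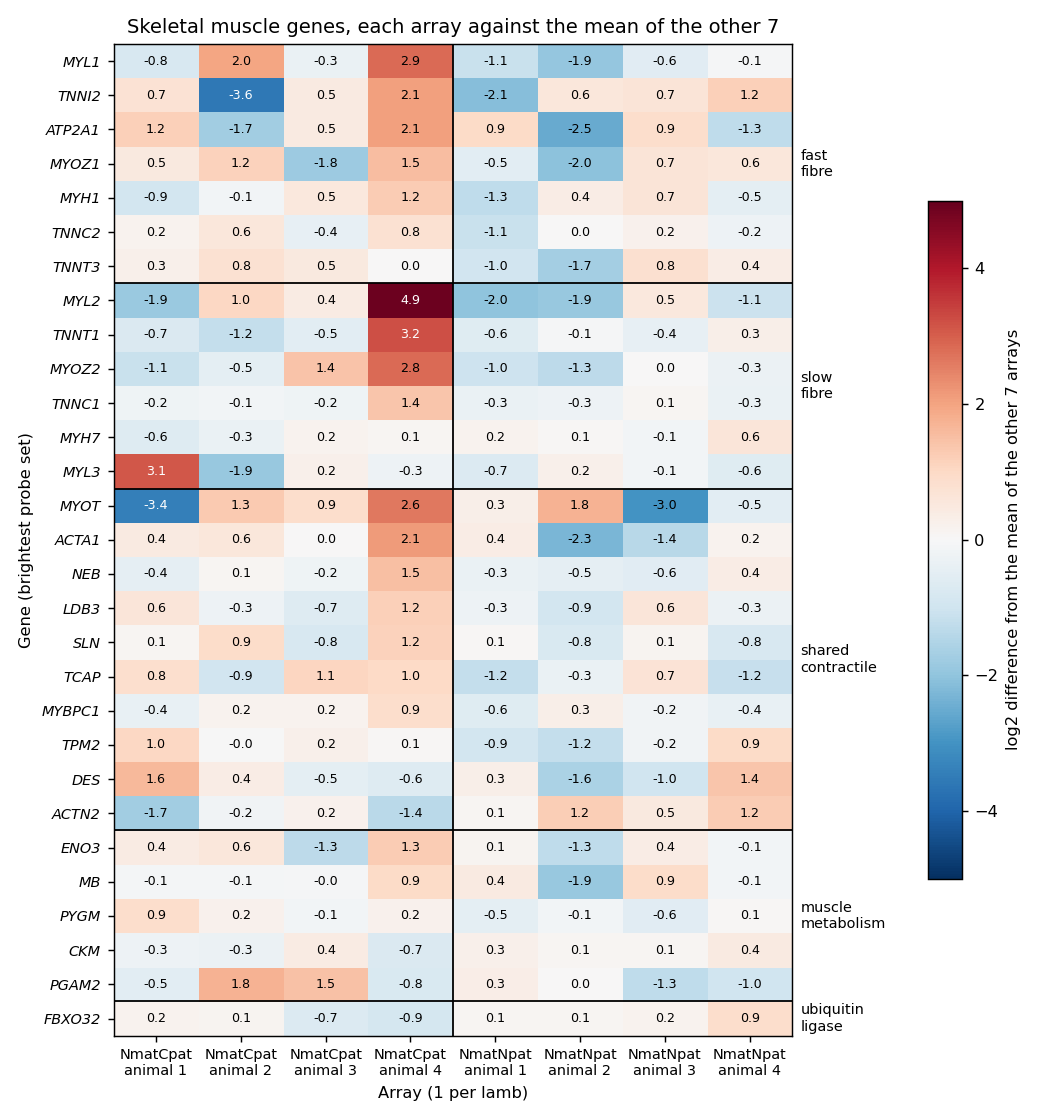
Each cell gives the log2 value of 1 gene (row, brightest probe set) on 1 array (column) minus the mean of the other 7 arrays, with genes grouped by list and sorted within it by NmatCpat animal 4. The column of NmatCpat animal 4 holds 16 of 29 values over 1, reaching 4.91 for MYL2, while the other columns hold 0 to 5.

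Both fibre types were represented among the raised genes. On the array of NmatCpat animal 4, 5 of 7 fast fibre genes and 4 of 6 slow fibre genes exceeded the other arrays by over 1 log2 unit, with medians of 1.53 and 2.11. Of the genes used by both fibre types 6 of 10 did so, with a median of 1.08. Of the 5 genes of muscle fuel metabolism 1 did so, with a median of 0.20, and the ubiquitin ligase gene FBXO32 was 0.87 below the other arrays, at -0.87.

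The slow fibre genes gave the largest single differences. MYL2, the regulatory light chain of slow and cardiac myosin, read 1.10, 3.63, 3.08 and 7.03 in NmatCpat animals 1 to 4 and 0.96, 1.07, 3.20 and 1.80 in NmatNpat animals 1 to 4. NmatCpat animal 4 exceeded the average of the others by 4.91 log2 units, or 30.1-fold, and 3.40 above the next lamb. The other 7 lambs spanned 0.96 to 3.63, near the bottom of the scale, so the fold depends on how low values are treated, and it was 6.88 when 16 was added to every intensity before the log.

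TNNT1, the slow form of the troponin subunit that binds tropomyosin, read 2.20, 1.79, 2.39 and 5.65 in NmatCpat lambs and 2.31, 2.79, 2.48 and 3.10 in NmatNpat lambs. Only NmatCpat animal 4 left the narrow band between 1.79 and 3.10, by 2.55 log2 units over the next lamb, and it was 9.29-fold above the mean of the others, or 3.07-fold with the offset. TNNC1, the calcium sensor of slow and cardiac fibres, showed the same single high lamb at a brighter level, with 5.87, 5.93, 5.88 and 7.27 in NmatCpat lambs and 5.74, 5.82, 6.13 and 5.75 in NmatNpat lambs. Its other 7 lambs lay within 5.74 to 6.13, and the difference of 1.39 log2 units was 2.63-fold and kept most of its size with the offset, at 2.28-fold.

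MYOZ2, which encodes the slow fibre calsarcin of the Z-disc, read 2.08, 2.61, 4.29 and 5.52 in NmatCpat lambs and 2.16, 1.91, 3.08 and 2.79 in NmatNpat lambs. NmatCpat animal 4 was highest by 1.23 log2 units, with animal 3 of the same genotype next. MYL3, the essential light chain of slow fibres and of the heart's ventricle, did not share this order, with 5.49, 1.10, 2.98 and 2.54 in NmatCpat lambs and 2.16, 2.98, 2.65 and 2.23 in NmatNpat lambs. It was high in NmatCpat animal 1 instead, 3.11 log2 units above the average of the rest, and it was the only member over 2 log2 units on an array other than that of NmatCpat animal 4.

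Among the fast fibre genes MYL1, the essential light chain of fast myosin, read 3.67, 6.11, 4.09 and 6.89 in NmatCpat lambs and 3.43, 2.69, 3.91 and 4.33 in NmatNpat lambs. NmatCpat animals 2 and 4 were both high, and the difference of NmatCpat animal 4 from the other lambs was 2.85 log2 units. TNNI2, the fast inhibitory subunit of troponin, read 5.21, 1.44, 4.96 and 6.38 in NmatCpat lambs and 2.71, 5.07, 5.14 and 5.60 in NmatNpat lambs. Its difference of 2.07 log2 units rested partly on 2 low lambs, NmatCpat animal 2 and NmatNpat animal 1, and the highest lamb was only 0.78 above the next.

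ATP2A1, the calcium pump of fast fibres, read 5.60, 3.05, 4.96 and 6.36 in NmatCpat lambs and 5.39, 2.36, 5.33 and 3.44 in NmatNpat lambs. NmatCpat animal 4 was again highest, 2.06 above the average of the others and 0.76 above the next lamb, in a gene whose values scattered widely in both genotypes. MYH1, the heavy chain of type 2X fibres, read 4.85, 5.54, 6.14 and 6.76 in NmatCpat lambs and 4.56, 5.99, 6.24 and 5.26 in NmatNpat lambs. TNNC2, the fast calcium sensor, read 6.0, 6.34, 5.48 and 6.51 in NmatCpat lambs and 4.86, 5.84, 6.04 and 5.62 in NmatNpat lambs.

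These last differences were small, at 1.25 log2 units for MYH1 and 0.77 for TNNC2. MYOZ1, the fast fibre calsarcin, was 1.53 above the other arrays, and TNNT3, the fast counterpart of TNNT1, was level with them, at 0.00. In 6 of the 7 fast fibre genes and 4 of the 6 slow fibre genes NmatCpat animal 4 had the highest value of the 8 lambs.

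**Figure D2:**
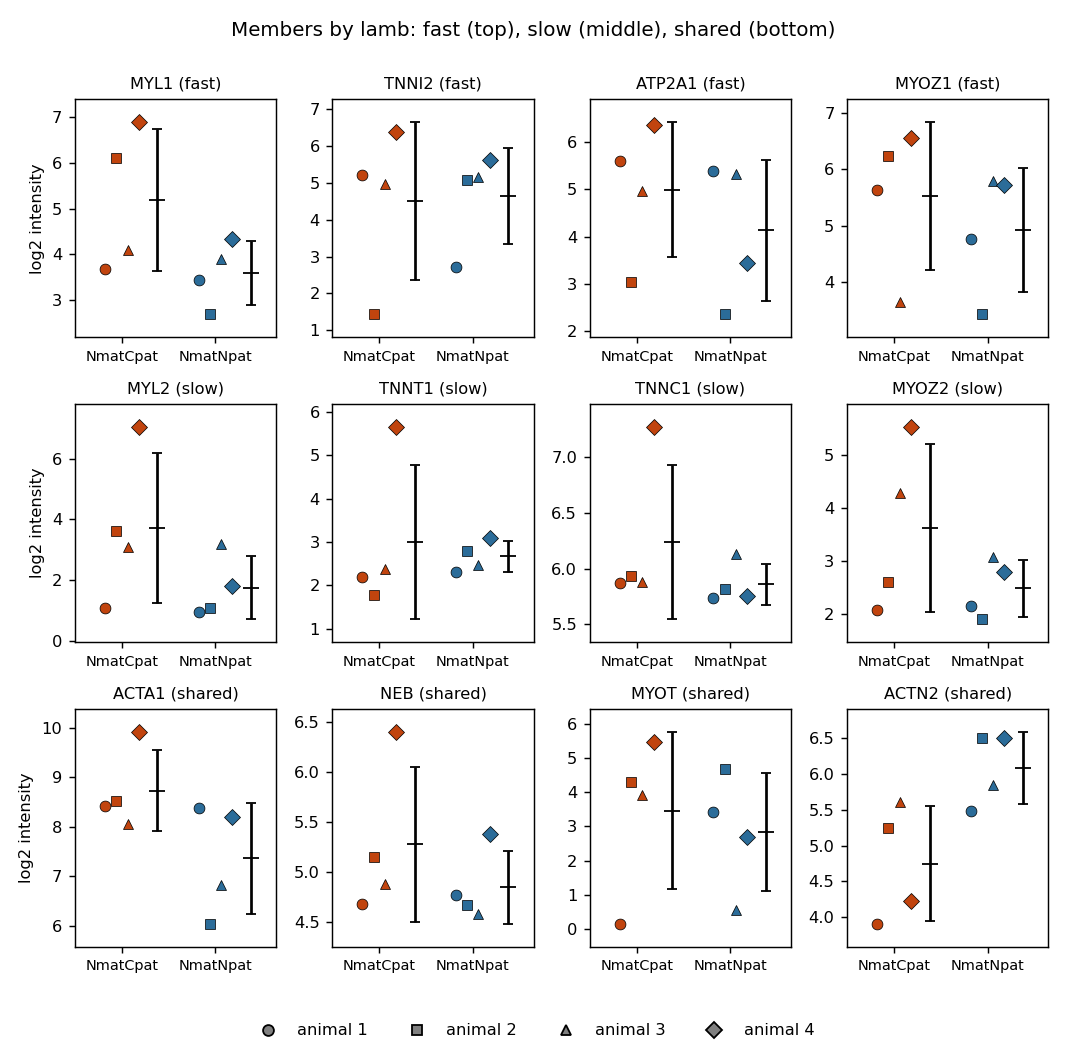
Points are log2 intensities of single lambs (symbol by animal number), with the mean and SD of each genotype (n = 4) at its right, for 4 fast fibre, 4 slow fibre and 4 shared genes. NmatCpat animal 4 is the highest point in every panel except ACTN2, where it reads 4.23, and in TNNT1 and TNNC1 it stands alone above the other 7 lambs. The genes shown were picked, each is on its brightest probe set, and over all 29 measured genes this lamb was highest in 18.

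Of the genes shared by the fibre types ACTA1, the actin of the skeletal thin filament, was among the bright ones and read 8.43, 8.53, 8.05 and 9.92 in NmatCpat lambs and 8.39, 6.04, 6.83 and 8.20 in NmatNpat lambs. The difference of NmatCpat animal 4 was 2.14 log2 units, or 4.41-fold, and hardly moved with the offset, at 4.12-fold. Actin genes are closely alike in sequence, and how far this probe set also reads other actins was not tested. ACTA2, the smooth muscle actin, read 12.34, 11.93, 12.05 and 11.41 in NmatCpat lambs and 10.66, 10.99, 11.25 and 12.35 in NmatNpat lambs.

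MYOT, a Z-disc protein, read 0.15, 4.31, 3.93 and 5.47 in NmatCpat lambs and 3.41, 4.68, 0.56 and 2.69 in NmatNpat lambs. Its difference of 2.65 log2 units came with a lamb near 0 in each genotype and with NmatNpat animal 2 only 0.78 lower. NEB, the giant protein that runs along the thin filament, was 1.52 above the other arrays on its brightest probe set. The Z-disc gene LDB3 was 1.20 above, and both had their highest value in NmatCpat animal 4. SLN, the small inhibitor of the calcium pump, and TCAP, which caps titin at the Z-disc, were the 2 genes close to the limit given above.

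MYBPC1, a myosin binding protein of the thick filament, stayed under the limit at 0.89 but was highest in NmatCpat animal 4, at 5.91 and 0.51 above the next lamb. The 3 remaining shared genes were not raised in this lamb. ACTN2, the alpha-actinin of Z-discs, was 1.36 lower there than the mean of the others, at -1.36. DES, the intermediate filament protein of muscle cells, read 9.36, 8.26, 7.49 and 7.38 in NmatCpat lambs and 8.18, 6.53, 7.06 and 9.15 in NmatNpat lambs. TPM2, the beta form of tropomyosin, read 10.89, 9.96, 10.20 and 10.03 in NmatCpat lambs and 9.18, 8.94, 9.84 and 10.80 in NmatNpat lambs.

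On their brightest probe sets DES and TPM2 were both highest in NmatCpat animal 1 and NmatNpat animal 4, as were several smooth muscle genes. The dimmer second probe set of TPM2 was highest in NmatCpat animal 1, at 5.41, but lowest in NmatNpat animal 4, at 2.69. Of the 8 measured genes of the smooth muscle list 2 had their highest value in the first of these lambs and 4 in the second. LMOD1 went the other way, at -0.84 and -1.66 against the other arrays in these lambs. CALD1 was nearly flat, within 10.31 to 10.67 in all lambs. The share of all probe sets highest in these lambs was not counted. MYH11, the smooth muscle myosin heavy chain, read 11.53, 10.51, 9.70 and 8.46 in NmatCpat lambs and 10.32, 8.30, 9.10 and 11.93 in NmatNpat lambs. CNN1, a calponin of smooth muscle, read 10.12, 9.36, 9.28 and 8.37 in NmatCpat lambs and 8.71, 7.63, 8.34 and 10.09 in NmatNpat lambs. On the array of NmatCpat animal 4, 0 of 8 smooth muscle genes were over 1 log2 unit above the others, with a median of -0.22.

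**Figure D3:**
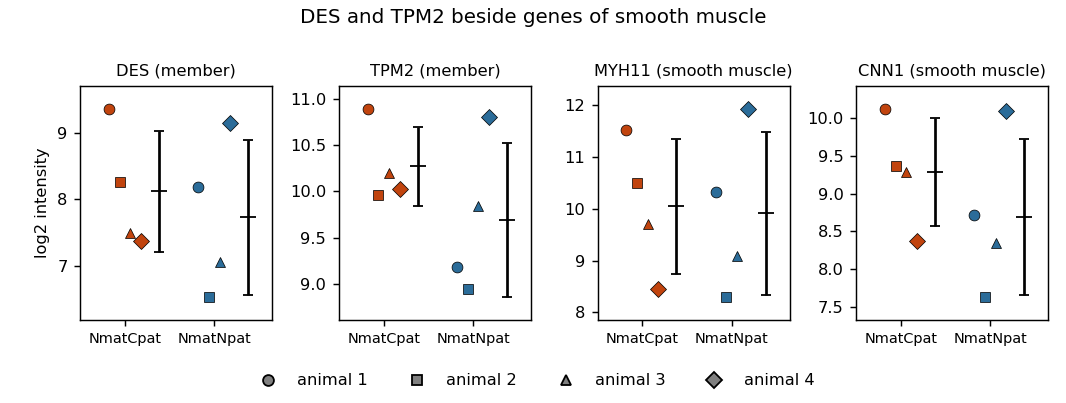
Points are log2 intensities of single lambs (symbol by animal number), with the mean and SD of each genotype (n = 4) at its right, for DES, TPM2 and the smooth muscle genes MYH11 and CNN1. In all 4 panels NmatCpat animal 1 and NmatNpat animal 4 are the highest points, from 9.15 in DES to 11.93 in MYH11, and NmatCpat animal 4 is not raised. MYH11 and CNN1 were picked from the 8 measured smooth muscle genes, of which LMOD1 did not follow this order. TPM2 is shown on its brightest probe set, and its dimmer one is lowest in NmatNpat animal 4.

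Genes of muscle fuel supply took little part. MB, the oxygen store myoglobin, read 5.57, 5.57, 5.62 and 6.49 in NmatCpat lambs and 6.04, 4.01, 6.46 and 5.53 in NmatNpat lambs, so that NmatNpat animal 3 was within 0.03 of the highest lamb. ENO3, the muscle enolase, was 1.26 above the other arrays in NmatCpat animal 4, PYGM, the muscle glycogen phosphorylase, was 0.20 above them, and PGAM2, the muscle phosphoglycerate mutase, was below them at -0.78. CKM, the muscle creatine kinase, read 9.65, 9.63, 10.22 and 9.22 on its brightest probe set in NmatCpat lambs and 10.10, 9.95, 9.97 and 10.25 in NmatNpat lambs, which put NmatCpat animal 4 lowest.

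For CKM and for MYH7, the heavy chain of slow and cardiac fibres, the answer depended on the probe set. The second probe set of CKM, annotated to a RefSeq mRNA, read 6.28, 6.19, 5.97 and 7.47 in NmatCpat lambs and 6.04, 6.31, 5.93 and 3.04 in NmatNpat lambs. On it NmatCpat animal 4 was highest and 1.79 log2 units above the other arrays, where the brightest probe set gave -0.74. The brightest probe set of MYH7, which is not annotated to a RefSeq mRNA, read 11.25, 11.49, 11.95 and 11.89 in NmatCpat lambs and 11.96, 11.86, 11.67 and 12.31 in NmatNpat lambs.

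That probe set was bright and nearly flat, with NmatCpat animal 4 only 0.11 above the others. The MYH7 probe set annotated to a RefSeq mRNA read 2.98, 2.34, 3.69 and 6.72 in NmatCpat lambs and 4.26, 2.96, 4.36 and 2.47 in NmatNpat lambs, and NmatCpat animal 4 was 3.43 above the others. Which transcript each probe set binds in sheep was not tested. With RefSeq mRNA probe sets in place of the brightest, which changed these 2 genes, the count on this array was 18 of 29, a choice made after seeing the data.

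Other genes with several probe sets gave the following. Of the 8 probe sets of MYH1, 6 were over 1 log2 unit in NmatCpat animal 4, and the differences ran from 0.34 to 5.50, and 2 of them are annotated to a RefSeq mRNA, the brightest at 1.25 and a dimmer one at 5.50, which also read 4.50 in NmatCpat animal 2. Both probe sets of TNNC1 were raised, by 1.39 and 2.87, and of ATP2A1 only the brightest, by 2.06 against 0.18. Of the 21 dimmer probe sets of the 11 genes that had several, 10 were over 1 log2 unit. So were 26 of all 50 probe sets, 6 of them of MYH1. Of all the array's probe sets at or below the median level 14.7% were. The dimmer probe sets of NEB, TPM2, TCAP, ATP2A1 and FBXO32 were not over 1 log2 unit. At least 1 probe set was in 19 of 29 genes. Heavy chain genes of skeletal muscle are closely alike, so a signal assigned to MYH1 cannot be told apart here from that of its neighbours in the family.

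**Figure D4:**
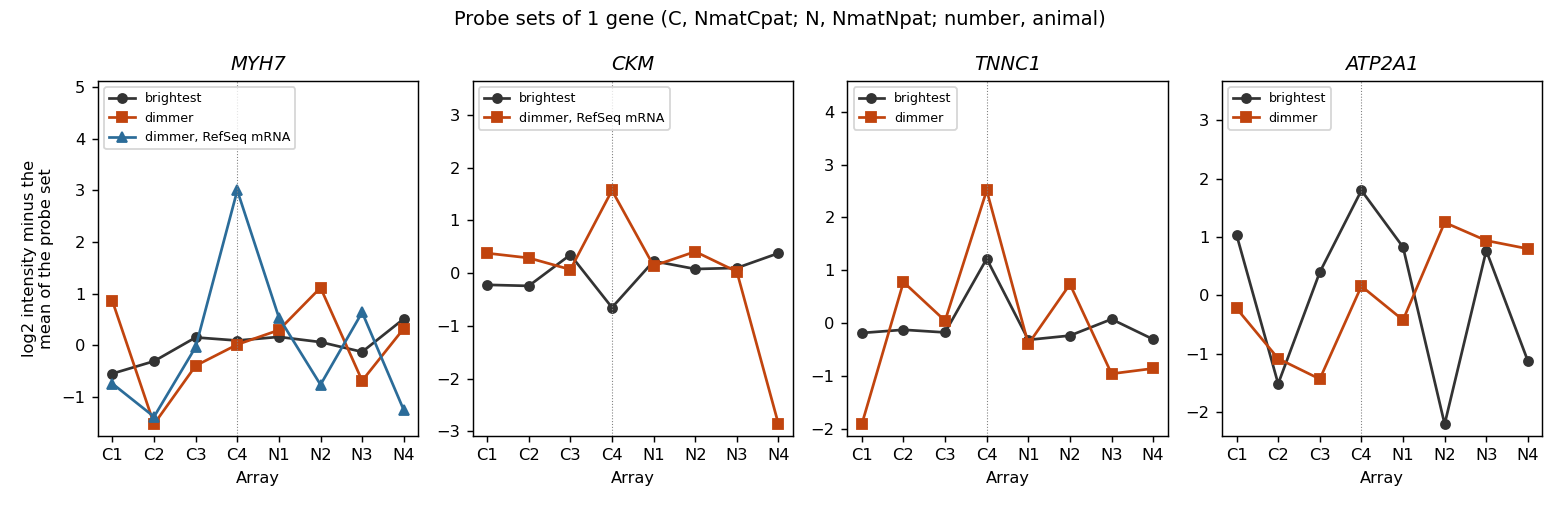
Each line is 1 probe set, with the log2 intensity minus that probe set's own mean over the 8 arrays (C1 to C4, NmatCpat animals 1 to 4; N1 to N4, NmatNpat animals 1 to 4), for MYH7, CKM, TNNC1 and ATP2A1. The dotted line marks NmatCpat animal 4, where both TNNC1 probe sets peak, but only the RefSeq mRNA probe sets of MYH7 and CKM and only the brightest probe set of ATP2A1 do.

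By the count over 1 log2 unit, a wider skeletal muscle list did not single out this lamb. Of its 35 measured genes, 23 of them dim, 5 were over 1 log2 unit in NmatCpat animal 4, against the 7.88% of all and 14.7% of the dim probe sets given above, and the median was -0.14. On the other arrays the count ran from 1 to 7, with 7 in NmatCpat animal 3. NmatCpat animal 4 was the highest lamb in 8 of the 35, against 13.0% of all probe sets, and NmatCpat animal 1 in 7. Over 2 log2 units there were 2 genes in NmatCpat animal 4, against 1.18% of all probe sets, and 2 in NmatNpat animal 1. In NmatCpat animal 4 these were SMPX, a small muscle protein linked to the cytoskeleton, 3.04 above, and KLHL41, a regulator of sarcomere assembly, 2.92 above. Of 6 measured myogenic factors 1 was over 1 log2 unit in NmatCpat animal 4, MYF5 at 2.19, while MYOD1 and MYOG, the factors that commit and differentiate muscle cells, gave -0.77 and -1.11. Of 6 measured heart genes 0 did so, with a median of -0.83.

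Of 13 adipocyte genes 1 was over 1 log2 unit there, the adipokine gene RETN at 1.96, and the median was -0.04. Of 5 brown fat genes 1 was over 1 log2 unit, UCP1, the uncoupling protein of brown fat, which read 7.11 there against 4.42 to 6.21 in the other lambs. In this lamb 4 of the 5 had their highest value, against 13.0% of all probe sets, and the median was 0.39. The lead over the next lamb was 0.91 for UCP1 and 0.28 for PPARGC1A, but only 0.04 for COX7A1 and 0.01 for COX8B. These are brightest probe sets, and the dimmer ones of COX8B and PPARGC1A did not all follow. The dimmer COX8B probe set was lowest in NmatCpat animal 4, at 3.44. Of the dimmer PPARGC1A probe sets 1 was highest in that lamb, at 6.19. The others were highest in NmatNpat animal 2, at 6.96 against 6.91, and in NmatNpat animal 4, at 5.65 against 5.43. All these values stand beside the muscle genes of this array, and their part in the result was not tested.

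The genotypes were then compared, which was the question of the study: whether transcripts of this fat depot differ in Callipyge lambs. With limma P no larger than 0.05 and more than 1.5-fold change, 0 of 29 muscle genes were higher in NmatCpat lambs, against 2.04% of all probe sets, and 1 of 29 was lower, against 1.88%. At a Benjamini-Hochberg adjusted p under 0.05, limma called 0 of 29 and 0.0% of all probe sets, and 1 of the 29 had an unadjusted p of at most 0.05. The values of the genotypes overlapped in all 29 genes, where 2.74% of all probe sets did not overlap.

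The gene called was ACTN2, and it was lower in the Callipyge genotype. It read 3.91, 5.25, 5.61 and 4.23 in NmatCpat lambs and 5.49, 6.50, 5.85 and 6.51 in NmatNpat lambs, with NmatCpat animal 3 above the lowest NmatNpat lamb. The means were 4.75 ± 0.807 and 6.09 ± 0.503 (SD, n = 4), and the difference was -1.34 (SE 0.436, 95% interval -2.35 to -0.33, limma P = 0.0156, adjusted p = 0.983, two-sided exact permutation p = 0.0571). In that last test 4 against 4 lambs can give no p below 0.0286. The direction of ACTN2 was that of few of these genes, since 24 of the 29 differences were above 0.

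The 29 differences had a median of 0.49 log2 units in the direction of NmatCpat, where the median over all probe sets was 0.01 and 12173 of 24016 were above 0. The medians were 0.60 for fast fibre, 0.45 for slow fibre, 0.50 for shared and 0.39 for metabolism genes, with 6 of 7, 5 of 6, 9 of 10 and 4 of 5 above 0. Without NmatCpat animal 4 the median over the 29 genes was 0.25, with 21 of 29 above 0, and the median over all probe sets was again 0.01. Genes of the same fibre can vary together, so their signs are not independent observations.

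The largest positive differences belonged to genes raised in NmatCpat animal 4. MYL2 differed by 1.95 log2 units (95% interval -0.76 to 4.67, limma P = 0.135, adjusted p = 0.983, exact permutation p = 0.2), with means of 3.71 ± 2.47 and 1.76 ± 1.03 (SD, n = 4), and by 0.85 without that lamb. MYL1 differed by 1.60 (interval -0.15 to 3.35) and by 1.04 without it, and MYOZ2 by 1.14 (interval -0.57 to 2.85) and by 0.51 without it. ACTA1 differed by 1.37 (interval -0.07 to 2.81, limma P = 0.0591, adjusted p = 0.983) and by 0.97 without it, and the exact permutation test gave p = 0.143. The dimmer probe sets of MYOZ2 had differences below 0 over all lambs, at -0.32 and -0.05.

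For TNNT1 the direction rested on this lamb, with 0.34 over all lambs and -0.55 without it, and the difference of MYOT went from 0.63 to -0.04 and that of MYH1 from 0.31 to -0.0042. TNNC1, NEB and LDB3 kept differences of 0.03, 0.05 and 0.10 of the 0.37, 0.43 and 0.39 they had with it. PGAM2, TNNT3, DES, TPM2, MYL3 and PYGM did not lose size without the lamb, and PGAM2 reached 1.21 from 0.84. Negative differences were those of ACTN2, FBXO32 at -0.54, CKM at -0.39, MYH7 at -0.30 and TNNI2 at -0.13.

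**Figure D5:**
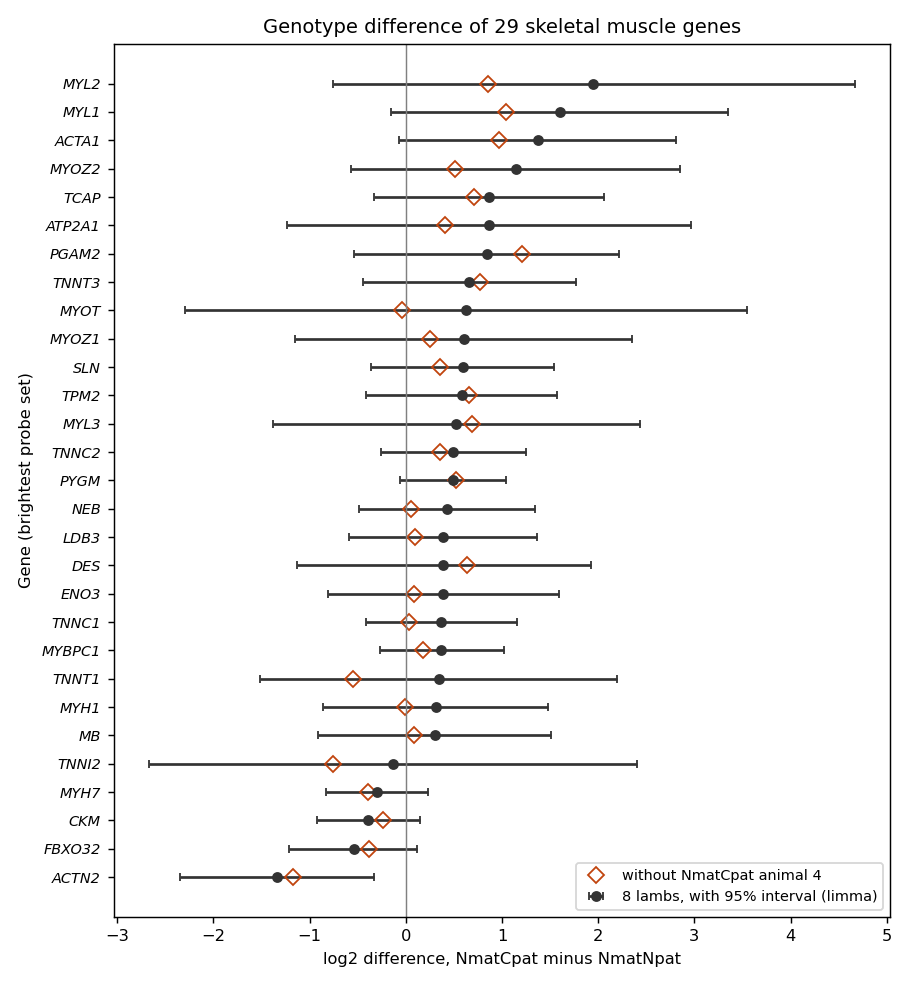
Filled points are the log2 difference, NmatCpat minus NmatNpat, of each measured gene over all 8 lambs with its 95% interval from limma, and open diamonds the same without NmatCpat animal 4. The interval leaves out 0 for ACTN2 alone, and MYL2 moves most between the 2 fits, from 1.95 to 0.85.

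The intervals were wide. Over the 29 genes the median distance from the difference to either end of its interval was 1.2 log2 units, against 0.742 over all probe sets, and 2 of 29 intervals lay within 1 log2 unit of 0 on both sides, against 11705 of 24016. The intervals of the remaining genes each held a 2-fold difference of at least 1 sign. Over all 50 probe sets 1 was called higher and 2 lower, near the 2.04% and 1.88% of all probe sets, with ACTN2 joined by a dimmer MYH1 probe set that was 2.08 higher (limma P = 0.0251, exact permutation p = 0.143) and a dimmer ATP2A1 probe set that was lower at -1.28 (limma P = 0.027, exact permutation p = 0.0857), opposite to the 0.86 of its brightest probe set.

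Of the 35 genes of the wider skeletal muscle list 3 were called higher, against 2.04% of all probe sets, and 1 lower, against 1.88%. NmatCpat animal 4 was the highest lamb in 0 of these 4. The genotypes did not overlap in 3 of the 35, FBP2, MYLK2 and CHRNA1, where 2.74% of all probe sets did not. FBP2, the muscle form of fructose bisphosphatase, read 8.98, 8.10, 8.36 and 7.93 in NmatCpat lambs and 7.88, 6.87, 6.32 and 7.71 in NmatNpat lambs, without overlap (difference 1.15, limma P = 0.0209, adjusted p = 0.983, exact permutation p = 0.0286). MYLK2, the skeletal muscle myosin light chain kinase, was 0.74 higher and MYPN, the Z-disc protein myopalladin, 1.14 higher. CHRNA1, a subunit of the acetylcholine receptor of the motor endplate, was lower at -1.51 (limma P = 0.0269, exact permutation p = 0.0286). The adjusted p from limma was 0.983 for MYLK2, MYPN and CHRNA1.

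Of the 6 myogenic factors 2 were called higher, against 2.04% of all probe sets, and 1 did not overlap, against 2.74%. MYF5, a factor of muscle precursors that also marks precursors of brown fat, read 2.81, 2.83, 4.0 and 4.09 in NmatCpat lambs and -0.08, 0.53, 1.97 and 1.22 in NmatNpat lambs. The genotypes did not overlap and differed by 2.52 log2 units (limma P = 0.00121, adjusted p = 0.906, exact permutation p = 0.0286, the smallest it can give), though all 8 values were dim. MSTN, the growth inhibitor myostatin, read 5.78, 4.94, 5.68 and 4.43 in NmatCpat lambs and 4.58, 3.48, 2.58 and 1.34 in NmatNpat lambs, a difference of 2.21 (limma P = 0.0115, adjusted p = 0.983, exact permutation p = 0.0571), with NmatNpat animal 1 above the lowest NmatCpat lamb. The dimmer second probe set of MSTN was not called, with a difference of 0.88 (limma P = 0.29, exact permutation p = 0.343). Of the 12 neuron genes 1 was called lower, against 1.88% of all probe sets. This was the RNA-binding protein gene ELAVL4 at -4.39, which read 9.89 in NmatNpat animal 1, the lamb with neuronal transcripts. It read 3.33 to 3.93 in the other NmatNpat lambs against -0.50 to 2.0 in NmatCpat lambs.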

How the data were processed

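Values of 8 arrays were read, 1 per lamb, assigned by the samples' titles. The authors used MAS5 (version not stated) on the images, and their methods describe background correction and quantile normalization. The deposited values are intensity on a linear scale, with array medians of 65.3 to 72.6 and a lowest value of 0.1, and no shared quantiles, so log2 values were taken and then quantile-normalized. After 112 control probe sets were left out (3 of them annotated ACTA1), limma 3.58.1 under R 4.3.3 was run on 24016 probe sets (lmFit, then eBayes, for NmatCpat minus NmatNpat without covariates), with Benjamini-Hochberg adjustment over all of them. The methods do not name the statistic, so limma was the choice here, and its script was tested on simulated data. The thresholds were a P no larger than 0.05 and more than 1.5-fold change. A two-sided exact permutation test over the 70 arrangements of the lambs was added for single genes.

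Symbols came from the platform annotation, which is old: 13292 probe sets had 1 symbol, 86 several and 10638 none, and those with several were not named. The genes and lists were chosen with earlier results of these data known. Values of every lamb are given for members called, members over 2 log2 units on any array, and MYL2, MYH1, MYH7, ATP2A1, ACTA1, CKM, MB, DES, TNNC1 and TNNC2. Of the other lists those called or over 2 log2 units on the array with most raised members were named, and other genes were named after their values were seen. The lists for adrenal cortex and kidney, tissues next to the depot, had 1 of 7 and 1 of 4 measured genes over 1 log2 unit on the array of NmatCpat animal 4. The number of arrays limits the precision of every value. No source says more on how the lambs of a genotype relate. The limma P sets a genotype difference against the variation between these lambs, and the exact p against rearrangements of them.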

Additional observations from a re-analysis of the deposited data

Results flagged for a closer look

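In 5 of the 58 groups of 4 lambs (29 genes in each genotype), 1 lamb lay far from the other 3 by Dixon's test at the 95% level, and chance gives about 1 in 20 groups. Of these, 3 were NmatCpat animal 4: TNNC1 at 7.27, TNNT1 at 5.65 and MB at 6.49, each the highest of its genotype. MB was not among the genes past the limit of 1 log2 unit, since NmatNpat lambs reached 6.46. The others were TCAP, low at 3.36 in NmatCpat animal 2, and FBXO32, high at 8.44 in NmatNpat animal 4. MYL2, the largest difference of NmatCpat animal 4, did not meet this test because the other 3 NmatCpat lambs were spread from 1.10 to 3.63.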

How the results depend on the processing

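The count of 16 raised genes in NmatCpat animal 4 was 15 to 17 when each other array was left out of the reference and 12 to 18 under the other settings at 1 log2 unit, except that among the 8 genes above the median level it was 3. Over 2 log2 units it was 8. The number of genes called between genotypes was 1, and 2 with an offset of 16, a trended and robust variance, the mean of a gene's probe sets or the replicate block, 3 over every probe set and 0 at an adjusted p. ACTA1 joined ACTN2 under the variance, offset and block settings. Among probe sets above the median level, where ACTN2 was not kept, the 1 call was ACTA1. Leaving out each lamb in turn gave 1 to 4 calls: 4 without NmatCpat animal 1 (MYL1, MYL2 and MYOZ2 joined), 4 without NmatCpat animal 3 (MYL1, PYGM and SLN), 3 without NmatNpat animal 4 (ACTA1 and TPM2), and 2 without NmatCpat animal 2 (TCAP), NmatNpat animal 1 (ACTA1) or NmatNpat animal 3 (TCAP). ACTN2 was called in each of these, at -1.62 to -1.06. The median difference of 0.49 ranged from 0.20 to 0.60. With the animal number as a block the count was 2, and same-numbered lambs did not deviate together over all probe sets (correlations of -0.013 to 0.048). Differently numbered lambs were not compared, and such a check cannot exclude a pairing that acts on few genes.

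Of 473 recomputed differences 436 kept direction and side of the thresholds, 16 passed them newly, and 21 in 11 genes changed sign. With the mean of all probe sets ATP2A1 was -0.21 and CKM 0.38. On the RefSeq mRNA probe set CKM was 1.15 and MYH7 0.42. With the offset TNNI2 was 0.08. Without NmatNpat animal 1 and NmatCpat animal 4 together MYH1 was -0.32, TNNC1 -0.01 and TNNT1 -0.67. Leaving out 1 lamb gave ranges of -0.02 to 0.87 for DES, -0.20 to 0.62 for MB, -0.01 to 0.63 for MYH1, -0.29 to 1.17 for MYL3, -0.13 to 1.73 for MYOT, -0.77 to 0.89 for TNNI2 and -0.55 to 0.74 for TNNT1. Apart from the choice of probe set or lamb, the cause was not tested. A planned search of promoters for motifs was not run. Signal near the bottom of the scale limits the dim genes most.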
